A study of Mus musculus with 16 samples.

Results

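The receptors and ligands of the colony-stimulating factor family were followed in demyelinated mouse spinal cord: the receptors Csf1r, Csf2ra, Csf2rb, Csf2rb2 and Csf3r and the ligands Csf1 and Il34. These 7 genes were taken by symbol from the 46078 genes of the count table, and all 7 were among the 15096 genes with enough reads to be tested. They were chosen as a gene family with earlier results of these data known, in which Csf1r and Csf3r were named as higher at day 10 than at day 5, so that they count as selected on the log2 fold changes between the days. Differences of the members between the days are therefore given below as a description without p-values, and nothing is read from the counts of calls in those contrasts. All mice were C57BL/6 aged 8 to 12 weeks, and every animal received lysolecithin, a lipid that strips myelin from axons. The exercise mice had a running wheel that turned freely, and the control mice lived with a locked wheel. Lesions were cut from frozen cord by laser microdissection at day 5 or day 10, which gave 4 groups of 4 libraries: exercise day 5, control day 5, exercise day 10 and control day 10. The labels do not say that each library came from a separate animal, so the p-values measure the spread between libraries.

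Csf1r is a receptor tyrosine kinase that carries the survival and growth signal of microglia, monocytes and macrophages. It has a pair of ligands: Csf1 (M-CSF), made by many cell types, and Il34, made in the brain mainly by neurons. Csf2ra binds GM-CSF, the product of Csf2, and signals together with Csf2rb, the beta chain that the receptors for GM-CSF, IL-3 and IL-5 share. Mice carry a further beta chain, Csf2rb2, which serves IL-3 only. Csf3r binds G-CSF, the product of Csf3, and is best known from neutrophils, although mouse microglia also transcribe it. In bulk tissue fewer cells of a type and less RNA per cell cannot be told apart, and this holds for every level below.

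Library depth ran from 8.13 to 10.93 M counts (M, mega) in exercise day 5, 11.2 to 13.93 M in control day 5, 9.77 to 11.09 M in exercise day 10 and 10.71 to 12.7 M in control day 10, so every exercise library of day 5 was shallower than every control library of that day. The mitochondrial transcript mt-Rnr2 took 10.9% to 12.9% of the counts in exercise day 5 and 8.05% to 10.3% in control day 5, and overlapped at day 10. Markers of spinal cord were present in all groups, with the 10 listed oligodendrocyte genes summing to at least 10505 CPM and the 12 listed neuron genes to at least 132 CPM in every library. CPM is counts per M counts of library size after TMM scaling, which corrects for differences in RNA composition.

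Csf2rb and Csf2rb2 are related copies that share stretches of sequence, and the start of their coding sequences shows how far a read of 75 nt can tell them apart. They lie 20.4 kb apart on opposite strands of chromosome 15: Csf2rb (ENSMUSG00000071713) at chr15:78325990-78351000 on the plus strand and Csf2rb2 (ENSMUSG00000071714) at chr15:78282517-78305603 on the minus strand of GRCm38. The first 75 coding bases of the longest GENCODE M21 transcripts follow, with the 2 bases that differ in capitals.
Csf2rb: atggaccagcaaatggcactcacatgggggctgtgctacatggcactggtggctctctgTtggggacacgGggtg
Csf2rb2: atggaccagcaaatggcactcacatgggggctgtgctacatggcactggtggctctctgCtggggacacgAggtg
Of all windows of 75 bases, 10.7% of those in Csf2rb and 11.1% of those in Csf2rb2 occur unchanged in the other gene, and 33.2% and 34.3% do so with at most 2 mismatches. The longest identical run was 242 bases. The way the aligner placed such reads could shift counts between this pair, and the split between them is uncertain to that extent.

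Promoter windows were at hand for 4 members (Csf1, Csf2ra, Csf2rb2 and Csf3r), from RefSeq on GRCm38.p6, each running from 250 bases before the annotated start to 50 bases after it. The myeloid factor PU.1, the product of Spi1, binds purine-rich DNA with a GAGGAAG-like core, and the 3 receptor windows below are shown because each holds these letters on either strand, in capitals. The search string was chosen after the windows had been read.
Csf3r: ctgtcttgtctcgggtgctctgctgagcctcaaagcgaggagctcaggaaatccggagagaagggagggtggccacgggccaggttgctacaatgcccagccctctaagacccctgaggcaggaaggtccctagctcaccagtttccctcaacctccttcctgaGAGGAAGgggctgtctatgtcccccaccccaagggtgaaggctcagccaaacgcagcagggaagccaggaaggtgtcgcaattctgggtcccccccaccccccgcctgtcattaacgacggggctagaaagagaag
Csf2ra: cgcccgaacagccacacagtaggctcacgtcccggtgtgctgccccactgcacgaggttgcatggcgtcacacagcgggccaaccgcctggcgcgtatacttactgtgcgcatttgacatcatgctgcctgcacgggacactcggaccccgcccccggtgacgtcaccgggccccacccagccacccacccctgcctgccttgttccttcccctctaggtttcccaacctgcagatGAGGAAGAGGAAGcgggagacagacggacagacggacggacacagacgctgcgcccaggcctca
Csf2rb2: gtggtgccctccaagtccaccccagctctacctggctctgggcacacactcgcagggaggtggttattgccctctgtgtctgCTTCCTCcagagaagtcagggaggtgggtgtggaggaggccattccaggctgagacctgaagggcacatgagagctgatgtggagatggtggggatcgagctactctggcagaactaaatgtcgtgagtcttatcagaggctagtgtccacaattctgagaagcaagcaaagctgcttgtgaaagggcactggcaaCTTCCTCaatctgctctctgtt
These windows are chr4:126024409-126024708 on the plus strand for Csf3r, chr19:61228369-61228668 on the minus strand for Csf2ra and chr15:78305672-78305971 on the minus strand for Csf2rb2. The match in Csf3r begins 86 bases before the RefSeq start, but lies inside the Ensembl gene used for counting, which begins at 126024550. In Csf2ra there are 2 matches, 14 and 8 bases before the start, which overlap by their shared G. In Csf2rb2 the 2 matches are on the reverse strand, 168 bases before the RefSeq start and 28 bases after it. Both lie outside the Ensembl gene used for counting, which on the minus strand begins at 78305603. The window of Csf1 held none, and 13.6% of the 32851 promoter windows of the mouse table hold the letters on either strand. A match describes letters and was not read as a binding site.

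The other members differ in how much sequence they share with other genes. Csf1r (ENSMUSG00000024621, chromosome 18, 61105572 to 61132149, plus strand) overlaps the end of Hmgxb3 on the opposite strand by 871 bases, and 13.9% of its 75-base windows occur in transcripts of that neighbour. Counting used the read's strand. Csf3r (ENSMUSG00000028859, chromosome 4, 126024550 to 126044440, plus strand) shares 3.13% of its windows with other transcripts, and Il34 (ENSMUSG00000031750, chromosome 8, 110741829 to 110805924, minus strand) shares 0.0494%. Csf1 (ENSMUSG00000014599, chromosome 3, 107741048 to 107760469, minus strand) and Csf2ra (ENSMUSG00000059326, chromosome 19, 61224402 to 61228418, minus strand) share none.

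Csf1r was the most abundant member in every library and Il34 the least. On the scale of CPM per kilobase of counted gene, the mean level over the 16 libraries was 102 for Csf1r, 34.8 for Csf3r, 26.6 for Csf2rb, 14.3 for Csf1, 8.49 for Csf2ra, 6.85 for Csf2rb2 and 1.25 for Il34. The lowest Csf1r level per kilobase (57.7) lay above the highest of Csf3r (53.7), and the highest of Il34 (2.97) lay below the lowest of Csf2rb2 (4.02). The ranges of all other neighbours in that order overlapped. Per kilobase, Csf2rb stood 3.94 ± 0.532-fold above Csf2rb2 (SD, n = 16; range 2.93 to 4.69) and 3.26 ± 0.782-fold above Csf2ra (range 2.04 to 4.72).

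**Figure D1:**
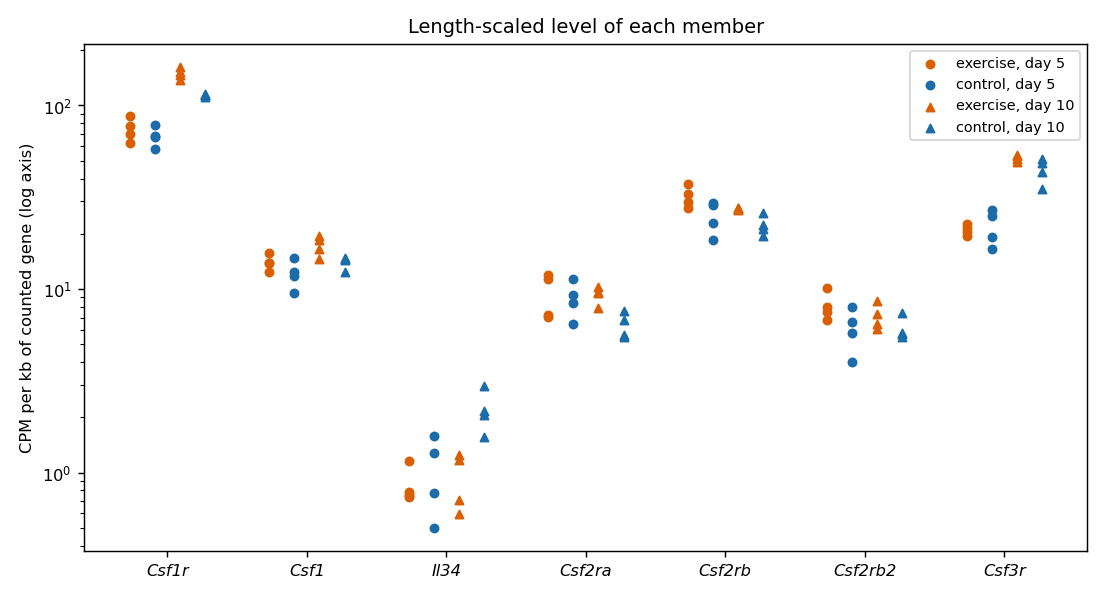
CPM per kilobase of counted gene (log axis) for each of the 7 genes in the 16 libraries; orange is exercise and blue control, circles are day 5 and triangles day 10. Csf1r lies above all other members and Il34, between 0.500 and 2.97, below all of them.

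Csf1r was higher at day 10 than at day 5 in both housing groups. Its level was 791, 745, 718 and 673 CPM in exercise day 10, against 378, 305, 344 and 429 CPM in exercise day 5. In control mice it was 555, 566, 558 and 544 CPM at day 10, against 282, 328, 335 and 385 CPM at day 5. Every day 10 library lay above every day 5 library of the same housing. The day 10 over day 5 difference was 1.01 on the log2 scale in exercise (SE 0.11, a 2.01-fold level) and 0.74 in control (SE 0.11, 1.67-fold). In order of level, exercise day 10 averaged 732 ± 49.8 CPM and control day 10 556 ± 9.24 CPM, ahead of exercise day 5 at 364 ± 52.6 CPM and control day 5 at 332 ± 42.1 CPM (SD, n = 4 each), and only the day 5 groups overlapped.

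Exercise and control did not separate by the test for Csf1r at either day. At day 10 all 4 exercise libraries lay above all 4 control libraries, with a log2 fold change of 0.40 (SE 0.11, 95% interval 0.16 to 0.63, edgeR quasi-likelihood, adjusted p 0.156). DESeq2, run on the same counts, gave 0.40 with an adjusted p of 0.0345 and thus called it, and the adjusted p ran from 0.0345 to 0.318 over all alternatives tried. The authors' deposited table, which leaves out exercise replicate 17, lists 0.378 (SE 0.0959) with an adjusted p of 0.0133; it calls 1.14% of its genes at that day and none of the other members, and 2.45% of its genes and none of the members at day 5, where Il34 has no adjusted p. At day 5 the log2 fold change was 0.13 (SE 0.11, 95% interval -0.10 to 0.36, adjusted p 0.718 by edgeR) and the groups overlapped.

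**Figure D2:**
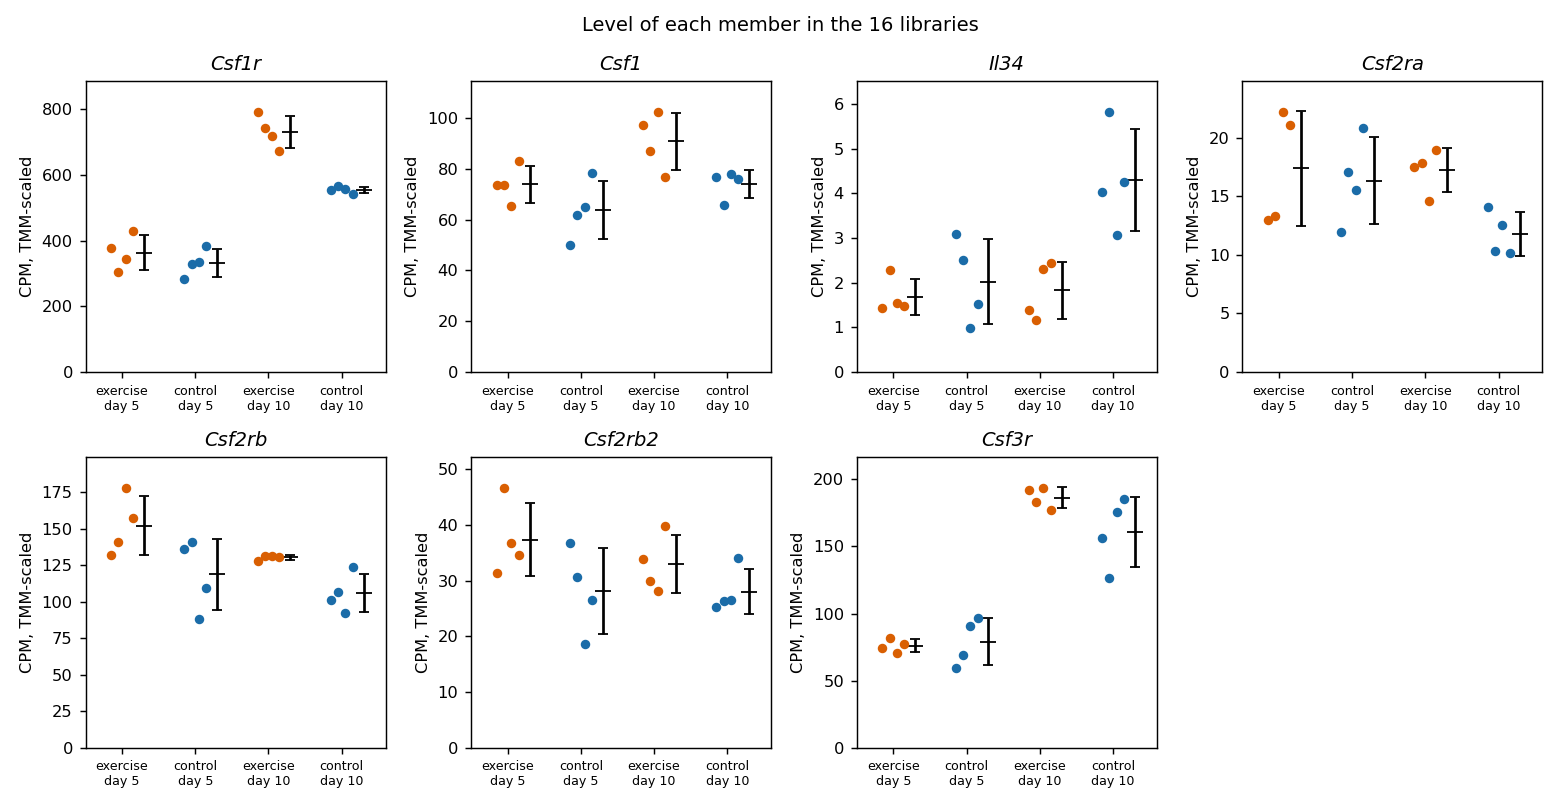
Level of each of the 7 genes in CPM (TMM-scaled, axes from 0), 1 point per library, with the mean and SD of the 4 libraries of each group beside them; orange is exercise and blue control. Csf1r and Csf3r are higher in both day 10 groups than in both day 5 groups, and Il34 is highest in control day 10, between 3.07 and 5.82 CPM.

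The ligand Csf1 varied less than its receptor. It had 73.6, 73.6, 65.3 and 83.1 CPM in exercise day 5, against 50.1, 61.9, 65.0 and 78.3 CPM in control day 5. At day 10 it had 97.1, 86.9, 102 and 77.0 CPM in exercise, against 76.7, 65.8, 77.8 and 75.9 CPM in control. The groups overlapped at both days. Exercise over control was 0.21 on the log2 scale at day 5 (SE 0.13, adjusted p 0.603) and 0.29 at day 10 (SE 0.13, adjusted p 0.348, both by edgeR), and neither passed. By group, exercise day 10 averaged 90.8 ± 11.2, control day 10 74.1 ± 5.55, exercise day 5 73.9 ± 7.26 and control day 5 63.8 ± 11.6 CPM (SD, n = 4 each), and each neighbouring pair in that order overlapped. Day 10 over day 5 was 0.30 (SE 0.13) in exercise and 0.21 (SE 0.13) in control on the log2 scale.

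Il34, the other ligand of Csf1r, rested on few reads, 11 to 64 per library. In exercise day 10 it had 15, 12, 26 and 24 reads (1.40, 1.17, 2.31 and 2.43 CPM), against 53, 64, 33 and 52 reads (4.02, 5.82, 3.07 and 4.26 CPM) in control day 10. All 4 control libraries of day 10 lay above all 4 exercise libraries. The difference was 2.34-fold lower in exercise (log2 -1.23, SE 0.37, 95% interval -2.01 to -0.44) but missed the threshold, with an adjusted p of 0.182 by edgeR; the adjusted p ran from 0.0749 to 0.359 over all alternatives. The authors' deposited table gives -1.08 with an adjusted p of 0.232.

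At day 5 Il34 had 1.44, 2.28, 1.54 and 1.47 CPM in exercise, against 3.10, 2.50, 0.980 and 1.53 CPM in control, and the groups overlapped (log2 -0.28, SE 0.38, adjusted p 0.851 by edgeR). Control day 10 (4.29 ± 1.14 CPM) thus stood highest, followed by control day 5 (2.03 ± 0.953), exercise day 10 (1.83 ± 0.636) and exercise day 5 (1.69 ± 0.399; SD, n = 4 each), and each neighbouring pair in that order overlapped. Day 10 over day 5 was 0.13 (SE 0.39) in exercise and 1.08 (SE 0.37) in control on the log2 scale. Neurons are the textbook source of Il34 in brain. The 12 neuron markers, all of them detected, summed to 132 to 572 CPM in exercise day 10 and 174 to 462 CPM in control day 10, and to 510.3 to 982 CPM in exercise day 5 and 359 to 525 CPM in control day 5. Their part in the Il34 levels was not tested.

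Both Csf1r ligands can be set against each other within a library, per kilobase. Csf1 stood 20.4 ± 7.53-fold above Il34 in exercise day 10 (range 11.7 to 27.5), against 6.82 ± 2.13-fold in control day 10 (range 4.20 to 9.40). These groups did not overlap. At day 5 the ratio was 16.9 ± 3.91 in exercise and 14.7 ± 8.63 in control (SD, n = 4 each), and the groups overlapped. Csf1r stood 8.77 ± 0.839-fold above Csf1 in exercise day 10 and 5.33 ± 0.569-fold in exercise day 5. In control the ratio was 8.15 ± 0.761 at day 10 and 5.67 ± 0.325 at day 5. The lowest day 10 ratio (7.58) lay above the highest of day 5 (6.09).

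The GM-CSF receptor chains differed less between the days than Csf1r and Csf3r. Csf2rb, the shared beta chain, had 128, 131, 131 and 131 CPM in exercise day 10, against 101, 107, 92.4 and 124 CPM in control day 10. At day 5 it had 132, 141, 178 and 157 CPM in exercise, against 136, 141, 88.1 and 109.8 CPM in control. The day 10 groups did not overlap and the day 5 groups did. Exercise over control was 0.30 on the log2 scale at day 10 (SE 0.14, adjusted p 0.365) and 0.36 at day 5 (SE 0.14, adjusted p 0.415, both by edgeR), and neither passed. In order, exercise day 5 averaged 152 ± 20.1, exercise day 10 130.4 ± 1.48, control day 5 119 ± 24.6 and control day 10 106 ± 13.1 CPM (SD, n = 4 each). Of these neighbours only the exercise groups did not overlap. Day 10 over day 5 was -0.22 (SE 0.14) in exercise and -0.16 (SE 0.14) in control.

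Csf2rb2, the IL-3 beta chain, followed its neighbour at a lower level. It had 33.9, 29.9, 28.1 and 39.8 CPM in exercise day 10, against 25.2, 26.3, 26.4 and 34.1 CPM in control day 10. At day 5 it had 31.4, 46.6, 36.7 and 34.5 CPM in exercise, against 36.8, 30.7, 18.5 and 26.5 CPM in control. Groups overlapped at both days. Exercise over control was 0.23 (SE 0.19, adjusted p 0.628) at day 10 and 0.41 (SE 0.19, adjusted p 0.484) at day 5 by edgeR, on the log2 scale. By group mean, exercise day 5 (37.3 ± 6.57 CPM), exercise day 10 (32.9 ± 5.18), control day 5 (28.1 ± 7.67) and control day 10 (28.0 ± 4.08; SD, n = 4 each) followed each other with overlapping ranges. Day 10 over day 5 was -0.18 (SE 0.19) in exercise and -0.0069 (SE 0.19) in control. Shared sequence bears on both beta chains, as given above, and its part in their likeness was not tested.

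Csf2ra, the GM-CSF binding chain, had 17.5, 17.9, 14.6 and 18.97 CPM in exercise day 10, against 14.05, 10.4, 12.6 and 10.2 CPM in control day 10. The exercise libraries all lay above the control libraries. The log2 fold change of 0.55 (SE 0.21, 95% interval 0.11 to 0.98) had an adjusted p of 0.285 by edgeR and did not pass. At day 5 its levels spread over 12.9997, 13.3, 22.2 and 21.1 CPM in exercise, against 11.9, 17.1, 15.5 and 20.9 CPM in control (log2 0.09, SE 0.20, adjusted p 0.919 by edgeR). The group means were 17.4 ± 4.92 in exercise day 5, 17.2 ± 1.85 in exercise day 10, 16.3 ± 3.70 in control day 5 and 11.8 ± 1.86 CPM in control day 10 (SD, n = 4 each), and neighbours in that order overlapped. Day 10 over day 5 was -0.015 (SE 0.21) in exercise and -0.47 (SE 0.21) in control on the log2 scale.

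Of 6 ligands and partner chains of the Csf2 and Csf3 receptors, all but Il3ra were at or near 0. Csf2 had 3 reads over all 16 libraries, with 14 libraries at 0, and Csf3 had 2 reads, likewise with 14 libraries at 0. Il3, Il5 and Il5ra had none, which allows up to 0.0168 CPM over all libraries together, and a library at 0 allows up to 0.218 to 0.380 CPM (3 reads, counting error only). Il3ra, the IL-3 binding chain, was the only 1 of these 6 genes with enough reads to be tested, at 3.79 ± 1.24 CPM in exercise day 5, 3.56 ± 1.86 in control day 5, 2.73 ± 1.65 in exercise day 10 and 2.08 ± 0.393 in control day 10 (SD, n = 4 each), and it was called in no comparison by edgeR, DESeq2 or limma-voom (adjusted p from 0.284 to 0.967 by edgeR).

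Csf3r, the G-CSF receptor, had the greatest difference between the days among the 7 genes in exercise mice. Its level was 192, 183, 194 and 177 CPM in exercise day 10, against 74.1, 82.0, 70.5 and 77.5 CPM in exercise day 5. In control mice it was 156, 126, 176 and 185 CPM at day 10, against 59.8, 69.1, 90.8 and 97.0 CPM at day 5. All day 10 libraries lay above all day 5 libraries. Day 10 over day 5 was 1.29 on the log2 scale in exercise (SE 0.14, 2.45-fold) and 1.02 in control (SE 0.14, 2.03-fold).

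Between housing groups Csf3r did not pass at either day. Exercise over control was 0.21 at day 10 (SE 0.14, 95% interval -0.08 to 0.50, adjusted p 0.543) and -0.06 at day 5 (SE 0.14, 95% interval -0.35 to 0.24, adjusted p 0.925, both by edgeR), with overlapping groups. In order, exercise day 10 averaged 186 ± 7.86, control day 10 161 ± 25.9, control day 5 79.2 ± 17.6 and exercise day 5 76.0 ± 4.89 CPM (SD, n = 4 each), and both neighbours within a day overlapped. The levels of 11 listed neutrophil markers are given beside Csf3r, and their part in its levels was not tested. Mpo and Elane, which encode neutrophil granule proteins, had 0 reads in every library, which was not read as an absence of neutrophils. Mmp8, S100a8 and Cxcr2 had reads in every library, and 4 of the 11 markers had enough reads to be tested. The summed level of the list was 3.46 to 4.47 CPM in exercise day 10, against 13.5 to 26.6 CPM in exercise day 5, and 4.54 to 12.0 CPM in control day 10, against 6.18 to 25.9 CPM in control day 5. Mmp8, a neutrophil collagenase, made up most of that sum at day 5. It averaged 2.83 ± 1.05 CPM in exercise day 10 and 15.2 ± 4.21 CPM in exercise day 5, and 3.20 ± 0.710 CPM in control day 10 and 12.4 ± 7.43 CPM in control day 5 (SD, n = 4 each). It fell between the days in exercise (log2 -2.43, SE 0.41, adjusted p 0.00127) and in control (-1.94, SE 0.40, adjusted p 0.0039, both by edgeR). The other tested markers, S100a8, S100a9 and Cxcr2, were called in neither, and their log2 differences were below 0 in exercise (-2.30, -2.10 and -1.12) but above 0 in control (0.094, 2.95 and 0.021).

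Between exercise and control edgeR called none of the 7 genes at either day. At day 5 edgeR called 0 of the 7, with 2 at an unadjusted p under 0.05 (Csf2rb and Csf2rb2), and DESeq2 and limma-voom also called 0, against 0% of all tested genes called by edgeR (1513 of 15096 at an unadjusted p under 0.05). At day 10 edgeR and limma-voom called 0 and DESeq2 1 (Csf1r), with 5 at an unadjusted p under 0.05, where edgeR called 0.192% of all genes (29 genes, with 1935 at an unadjusted p under 0.05). At day 10 there were 4 members whose groups did not overlap, with Csf1r, Csf2ra and Csf2rb higher and Il34 lower in exercise; of all tested genes 5.88% did not overlap, made up of 3.3% higher and 2.58% lower. At day 5 the groups overlapped for all 7, where 7.29% of all genes did not overlap. The median log2 fold change of the 7 was 0.29 at day 10, with 6 above 0, and 0.13 at day 5, with 5 above 0, beside medians over all tested genes of 0.013 at day 10 and 0.011 at day 5.

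The difference between the exercise effects of the days was tested as an interaction. By edgeR 0 of the 7 passed, and 0 had an unadjusted p under 0.05; DESeq2 and limma-voom also called 0, and edgeR called 0% of all genes (1376 at an unadjusted p under 0.05). The effect at day 10 minus that at day 5 was 0.27 for Csf1r (SE 0.16, 95% interval -0.06 to 0.59, adjusted p 0.603), 0.46 for Csf2ra (SE 0.29, adjusted p 0.636) and -0.95 for Il34 (SE 0.53, 95% interval -2.07 to 0.17, adjusted p 0.597) by edgeR. Between the days, edgeR called Csf1r and Csf3r in exercise, where it called 10.1% of all genes and 5.17% as higher, and the same 2 in control, where it called 12.3% of all genes and 5.66% as higher. These calls involve the contrasts in which the genes had been noticed, and nothing is read from the counts. In those contrasts 3 members did not overlap in exercise (Csf1r and Csf3r higher, Csf2rb lower), where 14.1% of all genes did not overlap (7% higher, 7.09% lower). In control 2 did not overlap (Csf1r and Csf3r, higher), where 20% of all genes did not, 9.33% higher.

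**Figure D3:**
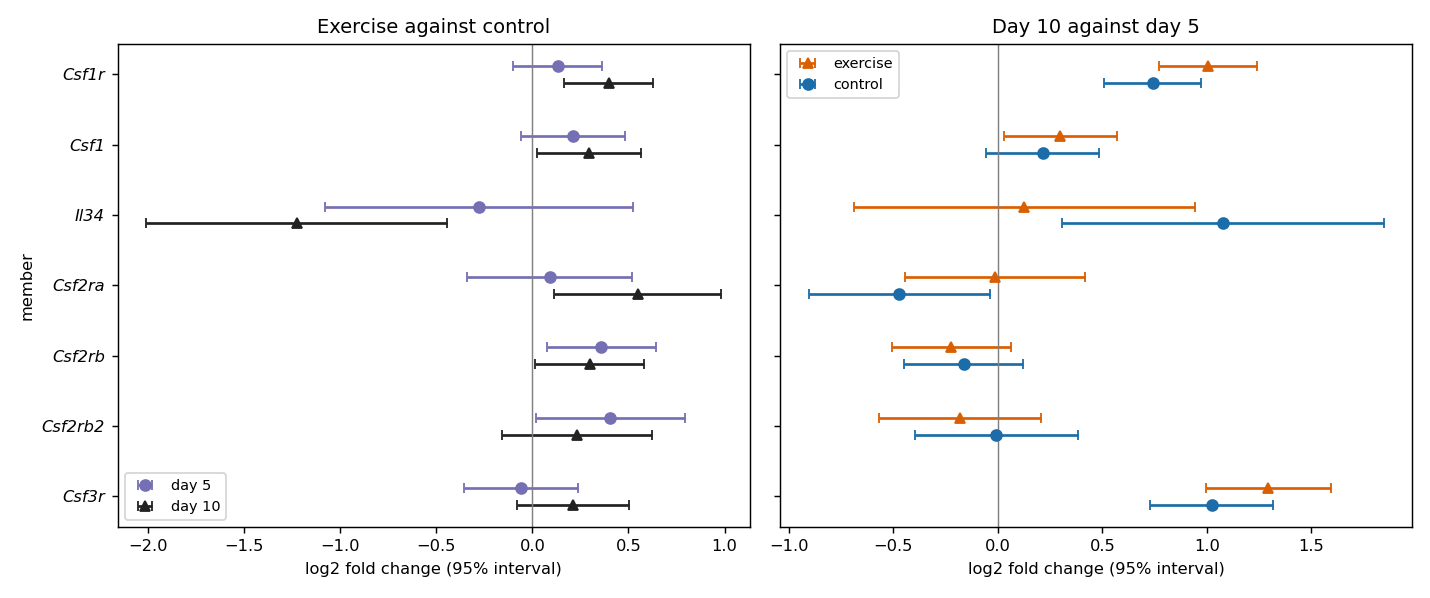
Log2 fold change of each of the 7 genes with its 95% interval from the edgeR fit, for exercise against control at day 5 and day 10 (left) and for day 10 against day 5 in exercise and control (right, a description). Left of 0 on the left panel is lower in exercise, and Il34 at day 10 (-1.23) lies farthest from 0 with the widest intervals.

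Csf1r and Csf3r were also set against the level of myeloid transcripts in the lesion, which is not a count of myeloid cells. The yardstick was the mean log2 CPM of 10 pan-myeloid genes (Ptprc, Aif1, Itgam, Cd68, Fcer1g, Laptm5, Ctss, Cd53, Coro1a and Lcp1), all detected in every group. The yardstick itself was not level between the days: edgeR called 3 of its genes higher and 1 lower at day 10 in exercise, and 1 higher and 3 lower in control. The median log2 difference of its genes between the days was 0.21 in exercise and -0.35 in control, so a gap on this scale also holds the yardstick's own shift. Laptm5 was called higher and Cd68 lower in both, with Laptm5 averaging 649 ± 125 CPM in exercise day 10 and 405 ± 9.87 CPM in exercise day 5, and Cd68 728 ± 281 CPM in exercise day 10 and 1147 ± 59.3 CPM in exercise day 5. Relative to the mean of all 10, Csf1r stood at 0.99 ± 0.31 in exercise day 10 and 0.08 ± 0.20 in exercise day 5, and at 0.91 ± 0.20 in control day 10 and -0.11 ± 0.22 in control day 5 (log2 units, SD, n = 4 each). Its lowest day 10 value (0.60) lay above its highest day 5 value (0.29). Csf3r stood at -0.98 ± 0.34 in exercise day 10 and -2.17 ± 0.09 in exercise day 5, and at -0.89 ± 0.12 in control day 10 and -2.19 ± 0.39 in control day 5. Here too the days did not overlap.

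Csf1r and Csf3r had been selected on the contrasts between the days, so their gap on this scale is a description. The GM-CSF receptor chains are given beside them. Relative to the pan-myeloid mean, Csf2rb stood at -1.50 ± 0.30 in exercise day 10 and -1.18 ± 0.17 in exercise day 5, and at -1.49 ± 0.22 in control day 10 and -1.61 ± 0.23 in control day 5. Csf2ra stood at -4.41 ± 0.24 in exercise day 10 and -4.33 ± 0.39 in exercise day 5, and at -4.64 ± 0.33 in control day 10 and -4.46 ± 0.34 in control day 5 (log2 units, SD, n = 4 each). For Csf2rb and Csf2ra the days overlapped within each housing group. In control the mean of Csf2rb on this scale was higher at day 10, whereas its log2 difference between the days in the edgeR fit was -0.16. Relative to that mean, Csf1r also overlapped between exercise and control at day 10, where its CPM had not. Csf2rb, which had overlapped in CPM at day 5, did not overlap relative to the mean, with exercise day 5 at -1.32 to -0.95 and control day 5 at -1.84 to -1.37. The nearest libraries of these groups were thus at -1.32 and -1.37. Only Csf1r, Csf3r, Csf2rb and Csf2ra were put on this scale, and no test was made on it. The share of all genes that separate on it was not worked out, and in CPM 7.29% did not overlap at day 5.

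**Figure D4:**
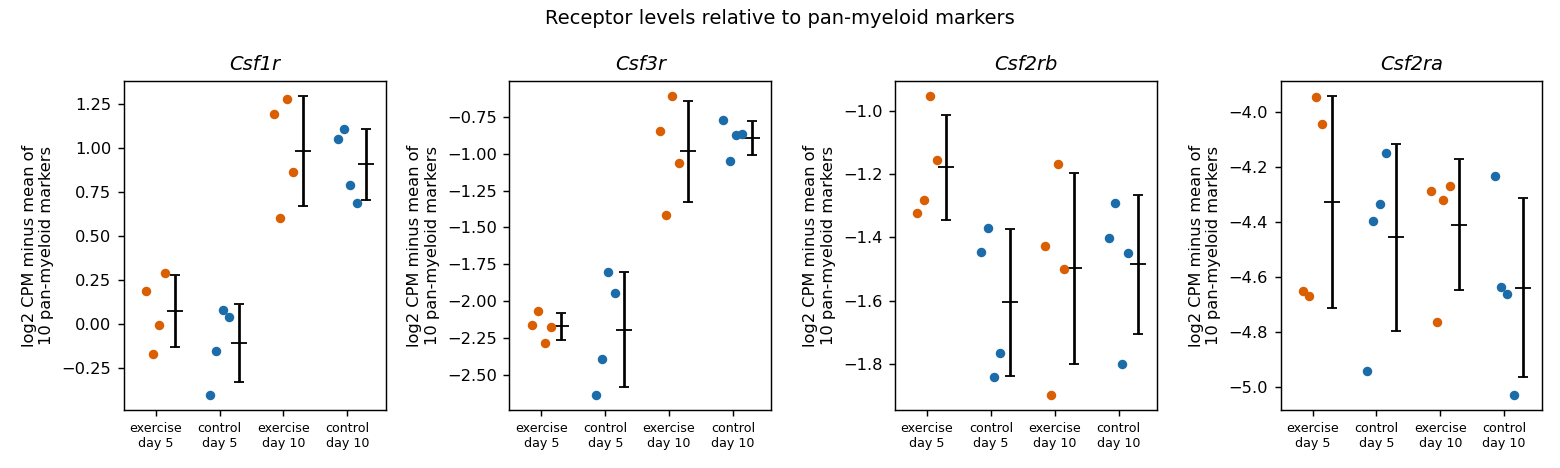
Log2 CPM of Csf1r, Csf3r, Csf2rb and Csf2ra minus the mean log2 CPM of 10 pan-myeloid markers in each library, with the mean and SD of the 4 libraries per group; each panel has its own vertical range, which does not start at 0. Csf1r and Csf3r, selected on the contrasts between the days, stand higher at day 10 than at day 5 in both housing groups. The days overlap within each housing group for Csf2rb and Csf2ra. At day 5 Csf2rb lies higher in exercise (-1.32 to -0.95) than in control (-1.84 to -1.37), a description without a test.

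The marker lists of myeloid cells moved beside these receptors, and their part in the results was not tested. Between the days edgeR called 781 of all 15096 genes higher and 739 lower in exercise, and 855 higher and 1003 lower in control. Of the 10 pan-myeloid genes, 1 was called between exercise and control at day 10: Itgam, named after its values were seen, averaged 121 ± 45.2 CPM in exercise day 10 and 59.4 ± 9.75 CPM in control day 10 (log2 1.02, SE 0.20, adjusted p 0.0424 by edgeR). DESeq2 also called 1 of the 10 and limma-voom 0. Calls at day 10 rest on few libraries: edgeR called 0 of all genes with only the groups compared, and 0 without exercise replicate 17, exercise replicate 19, control replicate 2 or control replicate 3. All 10 log2 fold changes were above 0 (median 0.28), and the list summed to 6014 to 9401 CPM in exercise day 10 and 5414 to 6495 CPM in control day 10. Of 12 homeostatic microglia genes, among them Sparc and Fcrls, 8 were called higher at day 10 than at day 5 in exercise and 4 in control by edgeR, and 0 were called between exercise and control at day 10 (6 at an unadjusted p under 0.05; 0 by DESeq2 and by limma-voom; median 0.52). That list summed to 9237 to 17606 CPM in exercise day 10 and 7824 to 10599 CPM in exercise day 5, and to 8316 to 11129 CPM in control day 10 and 9103 to 11949 CPM in control day 5. Of 12 monocyte and macrophage genes, led in mean level over all libraries by Lyz2, Cd44 and Vcan, 7 were called lower at day 10 than at day 5 in exercise and 4 in control. All 12 log2 differences were below 0 in exercise, while in control 9 were below and 3 above 0. Plac8 was among those above 0 in control, averaging 17.6 ± 3.71 CPM at day 10 and 9.90 ± 3.02 CPM at day 5. Arg1, an arginase of activated macrophages named after its values were seen, stood above Vcan at day 5 and fell between the days: it averaged 35.4 ± 21.9 CPM in exercise day 10 and 288 ± 138 CPM in exercise day 5 (log2 -3.03, SE 0.53, adjusted p 0.00246), and 32.1 ± 9.82 CPM in control day 10 and 309 ± 178 CPM in control day 5 (log2 -3.27, SE 0.54, adjusted p 0.00122, both by edgeR). Between exercise and control at day 10, edgeR, DESeq2 and limma-voom each called 1 of the 12. By edgeR this was Plac8, likewise named after its values were seen, at 4.45 ± 2.48 CPM in exercise day 10 and 17.6 ± 3.71 CPM in control day 10 (log2 -1.98, SE 0.38, adjusted p 0.0424), with the limits just given. The sum of the list was 5089 to 7208 CPM in exercise day 10 and 7768 to 12724 CPM in exercise day 5, and 6056 to 7227 CPM in control day 10 and 7232 to 13171 CPM in control day 5.

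Among genes that carry the Csf1r signal inside the cell, 1 of 20 passed the test in any comparison by edgeR. Of all genes edgeR called 10.1% between the days in exercise and 12.3% in control. It called 0.192% between exercise and control at day 10 and 0% at day 5, and 0% in the interaction. The median log2 fold change of all genes between exercise and control was 0.013 at day 10. Of these 20 genes, all tested, edgeR called 0 between exercise and control at day 10 (6 at an unadjusted p under 0.05; 0 by DESeq2 and by limma-voom), while 17 log2 fold changes were above 0 with a median of 0.24. At day 5 it called 0 (2 unadjusted; 0 by the other tools), with 8 above 0 and a median of -0.04. Inpp5d, which encodes the lipid phosphatase SHIP1, rose between the days in exercise, averaging 335 ± 75.5 CPM at day 10 and 201 ± 16.95 CPM at day 5 (log2 0.74, SE 0.13, adjusted p 0.00193 by edgeR), and was at 0.07 in control (adjusted p 0.770). Tyrobp, the adaptor DAP12 through which Csf1r also signals, was called nowhere: it averaged 360 ± 88.7 CPM in exercise day 10 and 281 ± 39.5 in control day 10 (log2 0.36, SE 0.15, adjusted p 0.346), against 292 ± 8.17 in exercise day 5 and 279 ± 44.8 in control day 5. The ligand partners Ptprz1 and Sdc1, which bind Il34, and Adam17, which sheds Csf1r, gave 0 calls in all 5 comparisons by edgeR, DESeq2 and limma-voom, with 1 (Adam17 in exercise against control at day 10) at an unadjusted p under 0.05.

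Downstream of the Csf2 and Csf3 receptors, 13 of 14 listed JAK-STAT genes were tested. Between the days edgeR called 1 of them in exercise and 2 in control, where it called 10.1% and 12.3% of all genes. Between the days Pim1, a kinase gene switched on by STAT factors, fell in exercise, averaging 3.41 ± 1.14 CPM at day 10 and 8.38 ± 2.50 CPM at day 5 (log2 -1.29, SE 0.32, adjusted p 0.014), and in control, averaging 3.86 ± 1.57 CPM at day 10 and 10.1 ± 1.01 CPM at day 5 (log2 -1.39, SE 0.31, adjusted p 0.00658, both by edgeR). Bcl2l1, which encodes the survival protein Bcl-xL, fell in control (-0.64, SE 0.12, adjusted p 0.00243 by edgeR), averaging 73.2 ± 12.2 CPM at day 10 and 114 ± 6.44 CPM at day 5. Between exercise and control 0 of the 13 were called at day 10 by edgeR, DESeq2 or limma-voom (2 at an unadjusted p under 0.05) and 0 at day 5 (0 unadjusted). Csf3r, by its levels above, was higher at day 10 where Pim1 was lower, and a link between them was not tested. Between the days 5 of the 13 log2 differences were above 0 and 8 below, in exercise and in control alike.

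Of 12 listed myeloid transcription factors 11 were tested, and edgeR called 6 higher at day 10 in exercise and 3 in control, none lower. Of all genes it called 5.17% higher in exercise and 5.66% higher in control. Sall1, a microglial identity factor that earlier results had already named, averaged 72.0 ± 10.8 CPM in exercise day 10 and 29.1 ± 4.97 in exercise day 5 (log2 1.31, SE 0.17), and 53.1 ± 4.69 in control day 10 and 29.4 ± 7.77 in control day 5 (0.85, SE 0.17). Mef2c rose by 0.92 in exercise (SE 0.14, adjusted p 0.000684) and by 0.66 in control (SE 0.14, adjusted p 0.00569). Irf8 (0.84, adjusted p 0.00129) and Runx1 (0.56, adjusted p 0.00964) rose in exercise, and Egr1 in control (1.20, adjusted p 0.00419, all by edgeR). At most 4 called genes were named per comparison, so a gene not named for one housing group may differ there too. Egr1 averaged 32.3 ± 11.3 CPM in exercise day 10 and 15.9955 ± 3.29 in exercise day 5. In control, Irf8 averaged 431 ± 67.2 CPM at day 10 and 332 ± 53.1 at day 5. Runx1 averaged 120 ± 17.4 CPM in control day 10 and 96.7 ± 6.11 in control day 5. Spi1, which encodes PU.1, was called in no comparison: it averaged 35.5 ± 4.02 CPM in exercise day 10 and 30.9 ± 5.28 in control day 10, and 30.2 ± 6.96 in exercise day 5 and 30.7 ± 6.02 in control day 5 (SD, n = 4 each). Between exercise and control 0 of the 11 were called at day 10 by any of the 3 tools (3 at an unadjusted p under 0.05 by edgeR), and 10 were above 0.

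Patterns over the 16 libraries are described by Pearson's r of log2 CPM, with r of the deviations from the 4 group means beside it. The libraries share their groups and depth, and no test goes with these values. The genes most like Csf1r were Cd86 (0.966, 0.779 within groups), Slco2b1 (0.966, 0.656) and Ppfia4 (0.965, 0.706). Those most like Csf3r were Cd86 (0.975, 0.764), Ifngr1 (0.968, 0.672) and Usp30 (0.963, 0.614). Csf1 was nearest to Inafm1 (0.867, 0.650), Selplg (0.856, 0.748) and Atp8a2 (0.843, 0.668).

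For Il34 the nearest genes were Cemip (0.876, 0.654), C630043F03Rik (0.860, 0.714) and C1qtnf2 (0.857, 0.709). Csf2ra was nearest to Tmem104 (0.803), Gabpb1 (0.791) and Anapc5 (0.782), Csf2rb to 2610507B11Rik (0.855), Hacd1 (0.841) and Eno1b (0.839), and Csf2rb2 to Dhx9 (0.804), Adck2 (0.801) and Aldh2 (0.794). Among the members themselves, Csf1r and Csf3r had an r of 0.932 over all libraries and 0.388 within groups. Csf1r and Csf1 had 0.765 and 0.701 within groups, and Csf2rb and Csf2rb2 had 0.773 and 0.664. Csf1r and its other ligand Il34 had 0.121 and -0.573 within groups. Pairs that are not receptor and ligand stood as high within groups, such as Csf1 and Csf3r (0.711, 0.788 within groups) and Il34 and Csf2rb2 (0.086, 0.703).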

How the data were processed

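RNA sequencing of 16 libraries was analysed. Lesion RNA was amplified, poly(A)-selected and read strand-specifically in reads of 75 nt, per the labels' protocols. The submitters' processing notes name TopHat2 2.0.10, Bowtie 1.1.2 and the build GRCm38. The deposited counts per Ensembl gene were made with featureCounts 1.5.0-p1 using the read's strand, per the file headers. The deposited normalized signal is each count over its library's size factor (0.718 to 1.248). The authors' tables of exercise against control give log2 fold changes, p-values and adjusted p-values laid out as by DESeq2, for which the processing notes give version 1.12.4.

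The deposited counts were fitted in R 4.3.3 with edgeR 4.0.16. Genes were kept by filterByExpr (at least 10 counts in enough libraries for the 4 groups, 15 in total), scaled by TMM and fitted by robust quasi-likelihood with 1 mean per group over all libraries. P-values were adjusted by Benjamini-Hochberg over the 15096 genes kept, with a threshold of 0.05. Log2 CPM used a prior count of 2. Alternatives were DESeq2 1.42.0, limma-voom (limma 3.58.1), RLE factors, no filter, no mitochondrial genes, only the groups compared, the replicate number as a block, and each library left out in turn. The counts of no 2 libraries were identical, and the labels name no batch.

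The members, the gene lists and the tests were chosen with earlier results of these data known. Named genes were the 7 members; called genes of the pathway lists (at most 4 per list and comparison by p) with Tyrobp, Spi1, Csf2 and Csf3; at most 3 markers per cell type by level, of which some are not reported here; and, per member, the 3 genes with the highest r.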

Additional observations from a re-analysis of the deposited data

Results flagged for a closer look

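In 92 groups of 4 libraries, covering the 7 genes and 16 summed gene lists, 6 had a library that stood apart from the other 3 by more than the 95% limit of Dixon's gap test, and chance gives about 1 in 20. Csf1 was at 65.8 CPM in control day 10 replicate 3, against 75.9 to 77.8 CPM in the other 3. Il34 was at 2.28 CPM in exercise day 5 replicate 2, against 1.44 to 1.54 CPM. Csf2rb2 was at 34.1 CPM in control day 10 replicate 5, against 25.2 to 26.4 CPM. The neutrophil markers summed to 3.46 CPM in exercise day 10 replicate 18, against 4.39 to 4.47 CPM. The neuron markers summed to 525 CPM in control day 5 replicate 6, against 359 to 387 CPM. The fibroblast and mural markers summed to 2896 CPM in control day 10 replicate 2, against 2283 to 2313 CPM.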

How the results depend on the processing

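Between exercise and control at day 10 the count of members called was 0 by edgeR and 1 by DESeq2 (Csf1r, adjusted p 0.0345; range over alternatives 0.0345 to 0.318), and 0 with any library left out; the cause was not tested. Between the days, where the members were selected and nothing is read from calls, Il34 in control passed the threshold by DESeq2 (log2 1.08), by limma-voom (1.15) and without control day 5 replicate 1 (1.35), and not in the fit reported. Differences near 0 changed sign with limma-voom: Csf2rb2 in control (0.021) and Csf2ra in exercise (0.0072), both between the days. With a library left out the log2 differences ran from -0.044 to 0.24 for Csf2ra, -0.50 to 0.0050 for Il34 and -0.17 to 0.058 for Csf3r in exercise against control at day 5, from -0.16 to 0.060 for Csf2rb and -0.039 to 0.18 for Csf1 in the interaction, and from -0.14 to 0.12 for Csf2ra and -0.042 to 0.30 for Il34 in exercise and -0.16 to 0.15 for Csf2rb2 in control between the days.

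The replicate numbers are shared by only 2 pairs in exercise against control at day 5 and in control between the days. The deviations of same-numbered libraries correlated at -0.042 to 0.085. So few pairs cannot decide whether these libraries share more than a number. With the replicate block, exercise against control at day 5 gave -0.10 for Csf2ra, -0.0067 for Csf2rb and 0.29 for Csf3r, and day 10 against day 5 in control gave 0.013 for Csf2rb and 0.30 for Csf2rb2; over all genes the block called 0 at day 5 and 561 in control between the days, against 1858 without it.

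Over all genes, DESeq2 called 80 at day 5 (edgeR 0), 227 at day 10 (edgeR 29) and 18 for the interaction (edgeR 0). With only the groups compared, edgeR called 0 at day 10 and 856 between the days in exercise (1520 with all groups). With a library left out it called 0 to 133 at day 10 (133 without exercise replicate 18), 0 to 1 at day 5 and for the interaction, and at least 975 between the days in exercise (975 without exercise day 5 replicate 7). Il34, with 11 to 64 reads per library, has the widest intervals of the 7 genes.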

Other observations

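The remaining marker lists describe the tissue around the receptors, with leading genes by mean level over all libraries and all counts by edgeR at an adjusted p under 0.05 unless another tool is named. Of all 15096 genes, 781 were called higher and 739 lower at day 10 in exercise, and 855 higher and 1003 lower in control. Of 10 oligodendrocyte lineage genes, among them Mbp and Cnp, 4 were called higher at day 10 than at day 5 in exercise and 6 in control. Between exercise and control at day 10, 0 of them were called by edgeR, DESeq2 or limma-voom (5 at an unadjusted p under 0.05). Of 8 astrocyte genes, led by Gfap, Aqp4 and Slc1a2, 2 were called higher at day 10 in exercise and 4 in control. Of 12 neuron genes, led by Snap25, Nefl and Stmn2, 4 were called lower at day 10 in exercise and 2 in control. Of 8 endothelial genes, led by Flt1, Kdr and Cdh5, 3 were called lower at day 10 in exercise and 0 in control (1 unadjusted; 1 by DESeq2 and 1 by limma-voom). Of 8 fibroblast and mural genes, led by Col1a2, Lum and Dcn, 0 were called between the days in exercise (2 unadjusted; 0 by the other tools) and 0 in control (3 unadjusted; 1 by DESeq2 and 1 by limma-voom). Of 6 dendritic cell genes, led by Itgax, 0 were called between the days in exercise (2 unadjusted; 2 by DESeq2, 0 by limma-voom). Of 10 lymphocyte genes 3 were tested and 0 were called by any of these tools in the 5 comparisons (0 unadjusted).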
